A study of Anolis chlorocyanus and Anolis cybotes and Anolis osa with 24 samples.

Results

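Leg muscle of Anolis cybotes was compared with leg muscle of 3 other anole lizards, A. chlorocyanus, A. osa and A. sagrei. The cybotes group held 3 of the 24 RNA sequencing libraries of the series and was set against the 9 leg libraries of the other species, 3 of each; the remaining 12 libraries were jaw muscle with the same title numbers. The labels give species, muscle, sex (male throughout) and a number in the title, and give no age, treatment or genotype. Libraries were taken by those titles, with no measured value involved. The contrast was the cybotes mean minus the mean of the 3 other species means, on the log2 scale.

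Anoles are a classic group for the study of limbs and habitat use. A. cybotes is a stocky trunk-ground lizard of Hispaniola that perches low on trunks and runs and jumps to the ground, A. sagrei is a trunk-ground lizard of Cuba and the Bahamas, A. chlorocyanus is a green trunk-crown lizard of Hispaniola, and A. osa is a mainland species from Costa Rica. A whole leg muscle is mostly muscle fibres, whose myosins and calcium-handling proteins set how fast and how long they contract, with blood vessels, nerve and connective tissue between them. In such a whole-tissue sample, fewer cells of a type and less RNA per cell cannot be told apart. The deposited table pairs its Ensembl-style identifiers with no gene symbols, so which proteins the genes encode was not analysed here, muscle marker genes could not be looked up, and no sequence is given. Reads of all 4 species were counted on 1 set of identifiers, so a difference in how well a species' sequence maps cannot be told apart from a difference in expression.

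The cybotes leg libraries were close to the others in depth. They held 1471495 to 1754588 counts, and the 9 others 1478274 to 1962685. They detected 12116, 12806 and 12902 genes, against 11959 to 12681 in the 9 others, so cybotes 03 and 08 lay above all of those. The difference in means was 265 genes (exact two-sided permutation p = 0.214 over all 220 assignments, adjusted p = 0.642 over the 3 measures tested, where the smallest p possible is 0.00455). Without cybotes leg 01 it was 511 genes. As 03 and 08 lay above all 9 others, the unadjusted exact permutation p was then fixed at 0.0182, the smallest possible for 2 libraries against 9. Without cybotes leg 03 or 08 the difference was 118 or 166 genes (unadjusted exact permutation p = 0.655 and 0.491). Total counts and the share of the 10 most abundant genes gave exact permutation p-values of 0.714 and 0.782, both 0.782 after adjustment. Across 8568 genes, the 3 cybotes libraries correlated with each other at 0.899 to 0.927 (log2 CPM, Pearson, a description across genes). With a library of another species they correlated at 0.711 to 0.857, with a median of 0.831, and libraries of 2 other species correlated with each other at 0.719 to 0.871, with a median of 0.826. Cybotes was thus no farther from the others, by this measure, than they were from each other.

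Genes typical of jaw muscle were also followed in leg. A set of 12 jaw-type genes was defined in the other 3 species only, from leg against jaw at an edgeR adjusted p under 0.05. These genes were also at least 32-fold lower in leg than in jaw, with at least 5 CPM in jaw. CPM is the count scaled to a common library size with TMM factors. These 12 genes held 0.331%, 0.510% and 2.32% of the counts in cybotes leg libraries 01, 03 and 08. In the 9 other leg libraries they held between 0.00401% and 0.559%, with a median of 0.0230%. In jaw they held 14.98% to 16.96% of cybotes counts and 6.14% to 15.3% of the others. The most abundant of them stood at 2180, 2627 and 14410 CPM in the cybotes leg libraries 01, 03 and 08, against 15.9 to 216 CPM in 8 of the other leg libraries and 2805 CPM in osa 07. Cybotes 08 was therefore well above the other cybotes libraries, and osa 07 overlapped with them. In the opposite direction, 27 leg-type genes defined the same way held 0.149% to 0.408% of cybotes jaw counts and 0.00687% to 0.0771% of the other jaw counts. Each set was chosen for low levels in the other species' libraries that cybotes is then set against, so a higher share in cybotes is partly built in, and these shares are a description only. The part of these genes in the results below was not tested.

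Of the 8568 genes tested, 1058 (12.3%) differed between cybotes leg and the mean of the other species by edgeR's quasi-likelihood test at an adjusted p of 0.05. In cybotes 609 (7.11%) were higher and 449 (5.24%) lower. Most of the differences were moderate. The median log2 fold change was 1.5 among the genes higher and -1.42 among those lower, against 0.01 over all genes. By edgeR's fitted fold change, 514 genes were at least 2-fold higher and 391 at least 2-fold lower. At least 4-fold changes numbered 166 and 99, at least 8-fold 59 and 23, and at least 32-fold 9 and 6. For a gene with 0 counts on 1 side the fitted fold is not a measured one. ENSACAG00000012218 and ENSACAG00000014905 fall in the 32-fold class. Against a floor of 3 counts in cybotes they were 8.34-fold and 8.02-fold lower than in the 9 others. The fit treats the 3 other species as fixed and measures the spread within species. With the 9 other libraries taken as 1 group, 172 genes were called, 103 higher and 69 lower. Differences among those species then count as spread. The effect changes as well, to the difference from 1 mean of the 9 libraries, with a median log2 fold change of -0.08 over all genes.

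Called genes were found at low and high levels. Below a mean of 10 CPM over the 12 leg libraries there were 2118 genes, of which 181 were higher and 74 lower in cybotes. Among 5180 genes between 10 and 100 CPM, 364 were higher and 313 lower. Above 100 CPM, of 1270 genes, 64 were higher and 62 lower. Since 9 of the 12 libraries behind the mean are of other species, a gene high in cybotes alone falls into a lower class than one low in cybotes alone, so the balance of higher and lower within a class is partly set by the classes. The share called was 12.0%, 13.1% and 9.92% in the 3 classes. The median change of the called genes was 1.90, 1.37 and 1.20 among those higher and -2.10, -1.37 and -1.15 among those lower. A gene with few counts needs a larger change to be called, so this decline with abundance is partly set by the threshold. Over all genes of a class the median was 0.14, -0.01 and -0.03.

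All 3 cybotes libraries lay above all 9 others for 286 genes (3.34%) and below all 9 for 292 genes (3.41%). Of the 609 genes higher in cybotes, 232 showed this full separation, and of the 449 lower, 228. The called genes were chosen on the same libraries, so these counts describe them and are no further test. The share of genes with full separation was 38.1% among those higher and 50.8% among those lower.

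The 4 genes with the largest changes among those with full separation and at least 5 CPM on the higher side, 2 in each direction, were as follows. ENSACAG00000002552 stood at 414, 169 and 193 CPM in the cybotes leg libraries 01, 03 and 08. The 9 other leg libraries ranged from 0 to 7.12 CPM, with a median of 1.24. The lowest cybotes library was thus far above the highest of the others, which was sagrei 16. Means were 258 ± 135 CPM in cybotes (SD, n = 3) and 2.13 ± 2.50 CPM in the others (n = 9). The log2 fold change was 7.63 (standard error 0.43, edgeR adjusted p = 3.59e-07). It weights the 3 other species equally on the log2 scale, so it is not the ratio of these 2 means, and it was 6.90 with the 9 others as 1 group. Among the others, sagrei averaged 5.16 ± 1.72 CPM, osa 0.831 ± 0.920 CPM and chlorocyanus 0.412 ± 0.714 CPM (SD, n = 3 each). Chlorocyanus and osa did not separate from each other, and sagrei lay above both.

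ENSACAG00000006770 stood at 96.5, 163 and 204 CPM in cybotes leg 01, 03 and 08. Of the 9 other leg libraries 6 had 0 counts, chlorocyanus 06 stood at 0.618 CPM, osa 07 at 1.82 CPM and sagrei 17 at 25.9 CPM. The groups did not overlap, but 1 sagrei library carried most of the signal outside cybotes. Its log2 fold change was 7.01 (standard error 0.82, edgeR adjusted p = 0.000184), and 9.30 without the sagrei 17 leg library. Sagrei 17 was also the highest jaw library outside cybotes, at 24.7 CPM on the scale of all 24 libraries, followed by osa 07 at 6.61 CPM, while sagrei 15 and 16 had 0 counts in both muscles.

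ENSACAG00000012218 had 0 counts in all 3 cybotes leg libraries. The other 9 ranged from 0.673 to 12.95 CPM, with a median of 3.29 CPM. Sagrei held the highest values, at 11.7 ± 1.84 CPM (SD, n = 3), followed by chlorocyanus at 3.03 ± 0.481 CPM and osa at 1.85 ± 1.20 CPM, and the ranges of those last groups overlapped. A floor of 3 counts for the cybotes group as a whole is 0.645 CPM. By this floor the level in cybotes was at least 17.9-fold lower than in sagrei, 4.73-fold lower than in chlorocyanus and 2.93-fold lower than in osa. These bounds cover counting error in cybotes only. The other species enter by their observed counts, 54 in sagrei, 16 in chlorocyanus and 9 in osa, whose own error is left out. Against the mean of the 3 species the edgeR adjusted p was 0.00471, and it was 0.0615 with the 9 others as 1 group. The cybotes jaw libraries also had 0 counts, and every jaw library of the other species had between 1 and 13.

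ENSACAG00000014905 likewise had 0 counts in the 3 cybotes leg libraries and in the 3 cybotes jaw libraries. In the other leg libraries it ranged from 0.618 to 16.8 CPM, with a median of 2.69 CPM. Levels ran from 12.1 ± 4.43 CPM in sagrei to 3.14 ± 2.19 CPM in osa and 0.757 ± 0.120 CPM in chlorocyanus (SD, n = 3 each), with no overlap between these species. By the same floor the level in cybotes was at least 18.9-fold lower than in sagrei and 4.88-fold lower than in osa. These bounds again leave out counting error in the other species, with 57 counts in sagrei and 15 in osa. Chlorocyanus had 4 counts over its 3 libraries, too near the floor for a fold. Against the mean of the 3 species the edgeR adjusted p was 0.0128, and it was 0.0552 without the cybotes 03 leg library and 0.105 with the 9 others as 1 group. Against chlorocyanus alone, where the level was lowest, the edgeR adjusted p was 0.115, so a difference between cybotes and chlorocyanus was not detectable at this depth.

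**Figure D1:**
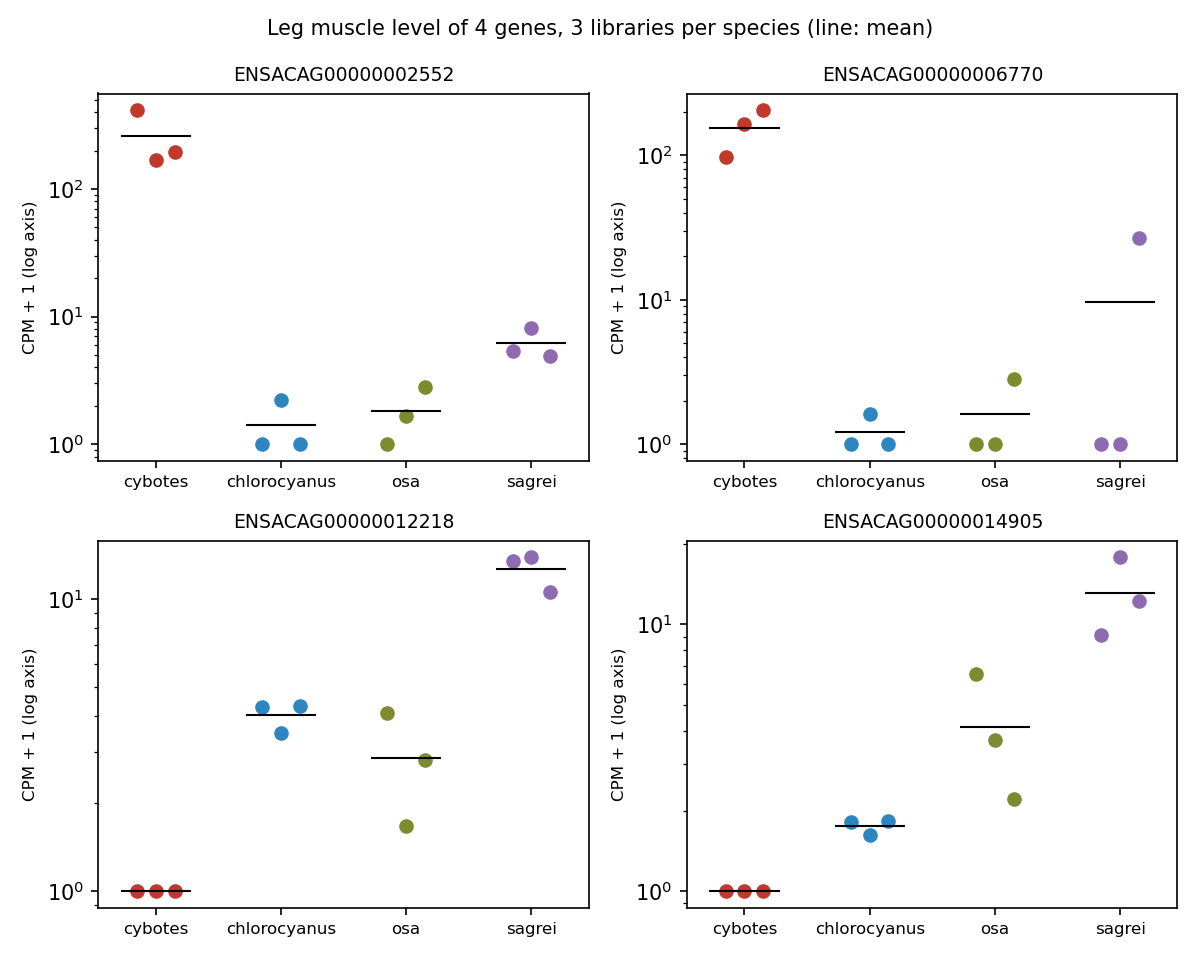
Level of the 4 named genes in the 12 leg libraries, by species, as CPM + 1 on a log axis; points are libraries and lines are species means. ENSACAG00000002552 and ENSACAG00000006770 lie between 96.5 and 414 CPM in cybotes and at most 25.9 CPM elsewhere, while the 2 genes below are at 0 counts in all 3 cybotes libraries.

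Genes detected in cybotes leg and absent from the other leg libraries were few. With at least 3 counts in each cybotes leg library and 0 in all 9 others there were 4, holding 15, 16, 21 and 23 counts over the 3 cybotes libraries. None of the 4 had a count in the 9 jaw libraries of the other species, and 2 of them were detected in all 3 cybotes jaw libraries. The same rule gave 7 genes for chlorocyanus, 3 for osa and 4 for sagrei. In the opposite direction no gene had 0 counts in cybotes leg with at least 3 counts in each of the 9 others, whereas chlorocyanus had 9 such genes, osa 3 and sagrei 3. These counts have no test and rest on few reads.

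Most of the genes with changes of at least 8-fold were detected on both sides. For the 59 genes at least 8-fold higher, the cybotes mean ranged from 9.22 to 6405 CPM with a median of 32.3, and for none of them were all 9 others at 0. The highest value belonged to the most abundant jaw-type gene above. Its log2 fold change was 4.73 (standard error 0.91, edgeR adjusted p = 0.00601), with overlap between cybotes and osa 07. For the 23 genes at least 8-fold lower, the mean of the others ranged from 3.93 to 91.1 CPM with a median of 12.7. Of these 23, 6 had 0 counts in all 3 cybotes leg libraries, so their fold is a fitted value. Full separation was seen for 33 of the 59 and 14 of the 23. Among all called genes it was 38.1% of those higher and 50.8% of those lower, and over all genes 3.34% above and 3.41% below. Genes with large called changes were chosen on the same libraries, so these counts are a description only.

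The abundant genes below were chosen by level, not by size of change, among called genes with full separation. Their levels varied widely within some of the other species. The most abundant gene of those higher with full separation, rank 94 of all genes in leg, stood at 1705, 1565 and 1375 CPM in cybotes 01, 03 and 08. The 9 others ranged from 496 to 1209 CPM with a median of 705, and sagrei alone averaged 760 ± 389 CPM (SD, n = 3). Its log2 fold change was 1.003 (standard error 0.30, edgeR adjusted p = 0.0414), and in the single comparisons it was 0.93 against chlorocyanus, 1.06 against osa and 1.03 against sagrei. The 3 single differences were thus alike in size, and none passed an adjusted p of 0.05 on its own, at 0.111, 0.0922 and 0.106.

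The second such gene, at rank 279, stood at 819, 706 and 801 CPM in cybotes 01, 03 and 08. The 9 others ranged from 167 to 447 CPM, with a median of 253. Here the log2 fold change was 1.55 (standard error 0.25, edgeR adjusted p = 0.00240). It was largest against osa, at 2.02, and 1.29 and 1.34 against chlorocyanus and sagrei, with adjusted p-values of 0.00369, 0.0194 and 0.0258. The next most abundant, a pair of genes at similar levels, averaged 467 ± 96.1 and 441 ± 68.6 CPM in cybotes (SD, n = 3) and 252 ± 46.5 and 259 ± 51.8 CPM in the others (n = 9). Their log2 fold changes were 0.89 (standard error 0.22) and 0.77 (standard error 0.23), with edgeR adjusted p-values of 0.0178 and 0.0414.

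Of the genes lower in cybotes with full separation, the most abundant, at rank 130, stood at 525, 459 and 467 CPM in cybotes 01, 03 and 08. The 9 others ranged from 593 to 1143 CPM, with a median of 863. The log2 fold change was -0.79 (standard error 0.22, edgeR adjusted p = 0.0345), made up of -0.89 against chlorocyanus, -1.04 against sagrei and -0.45 against osa. The difference from osa did not pass on its own (adjusted p = 0.287), and osa lay between cybotes and the other species. The second, at rank 167, averaged 398 ± 58.5 CPM in cybotes, 923 ± 252 CPM in chlorocyanus, 615 ± 129 CPM in osa and 607 ± 104 CPM in sagrei (SD, n = 3 each). Its log2 fold change was -0.82 (standard error 0.25, edgeR adjusted p = 0.0490). It was -1.21 against chlorocyanus and, not past the threshold, -0.63 against osa and -0.61 against sagrei. For the third, osa again lay nearest to cybotes. This gene averaged 366 ± 61.6 CPM in cybotes (SD, n = 3), 438 ± 7.30 CPM in osa, 690 ± 39.4 CPM in chlorocyanus and 719 ± 141 CPM in sagrei. Its log2 fold change was -0.71 (standard error 0.22, edgeR adjusted p = 0.0492), with -0.26 against osa (edgeR adjusted p = 0.568). The next most abundant had another order, with 233 ± 53.3 CPM in cybotes, 934 ± 175 CPM in chlorocyanus, 400 ± 72.2 CPM in osa and 381 ± 80.5 CPM in sagrei. Its log2 fold change of -1.17 (standard error 0.25, edgeR adjusted p = 0.0112) was largest against chlorocyanus, at -2.01, with -0.78 for osa and -0.71 for sagrei, which did not pass on their own.

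Among the called genes, no single other species was the usual neighbour of cybotes. By species means of log2 CPM, cybotes was the highest of the 4 for 556 of the 609 genes higher and the lowest for 437 of the 449 genes lower. For the remainder another species lay beyond cybotes. The genes were called for cybotes against the mean of these species, so cybotes at the extreme is largely built in. The highest of the 3 other species was osa for 225 of the genes higher, chlorocyanus for 205 and sagrei for 179. For the genes lower, the lowest of the 3 was osa for 157, sagrei for 153 and chlorocyanus for 139. Where cybotes was the extreme, that species was also the nearest to it. The median gap from cybotes to that species was 0.73 on the log2 scale among the genes higher and 0.81 among the genes lower. At the opposite end of the 3, chlorocyanus stood most often, for 236 of the genes higher and 192 of the genes lower. The median log2 difference of the genes higher was 1.52 against chlorocyanus, 1.46 against osa and 1.41 against sagrei, and of the genes lower -1.58, -1.40 and -1.40. The 3 single comparisons share the cybotes libraries and the genes were chosen on all 12. Nearest and opposite species were not counted over all genes tested. These counts and medians therefore describe the called sets only.

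The 3 single comparisons were taken from the same fit of all 12 leg libraries. In them, cybotes leg differed from chlorocyanus leg in 1432 genes (16.7%), 641 higher and 791 lower in cybotes. It differed from osa leg in 994 genes (11.6%), 490 higher and 504 lower. The difference from sagrei leg covered 824 genes (9.62%), 397 higher and 427 lower. Which direction held more genes turned with the setting for osa (658 higher and 585 lower with DESeq2) and for sagrei (436 higher and 385 lower with upper-quartile scaling). Sagrei is the other trunk-ground species here, and whether the counts for the 3 species differ beyond error was not tested. The count against chlorocyanus was 845 without chlorocyanus leg 06. The osa count was 454 without osa leg 04 and the sagrei count 307 without cybotes leg 03. Set against the mean of their own 3 others, chlorocyanus leg had 1703 genes (19.9%), osa leg 973 (11.4%) and sagrei leg 762 (8.89%). Cybotes, with 1058, lay between chlorocyanus and osa. Genes higher made up 57.6% of those called for cybotes, 61.6% for chlorocyanus, 58.9% for osa and 62.6% for sagrei. An excess of genes higher over genes lower was thus not particular to cybotes. The number called depends on the spread within species, which the fit pools over the 4 species for each gene. The median SD of log2 CPM over all genes was 0.402 in cybotes, 0.476 in chlorocyanus, 0.373 in osa and 0.390 in sagrei. Whether these SDs bear on the counts was not tested.

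**Figure D2:**
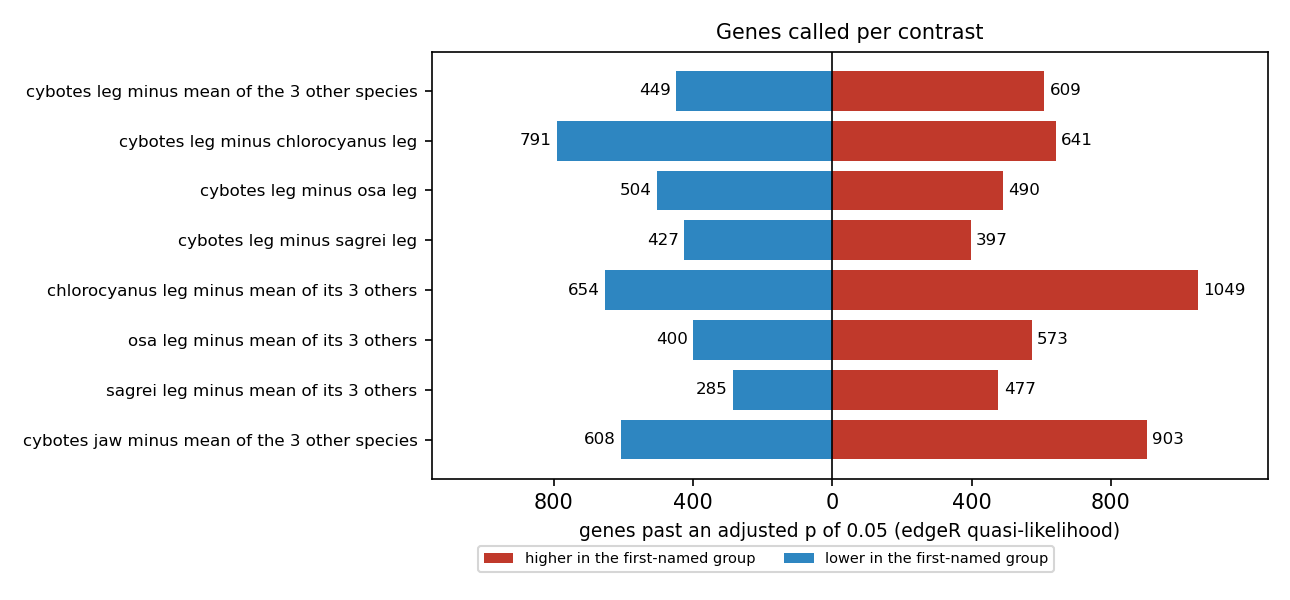
Number of genes past an adjusted p of 0.05 in each contrast (edgeR quasi-likelihood), with genes higher in the first-named group to the right and genes lower to the left. Cybotes leg has 609 genes higher and 449 lower against the other 3 species, and chlorocyanus leg the largest total of the 4 leg groups, at 1703.

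The genes called higher in cybotes leg held 4.50%, 5.62% and 6.66% of the counts in cybotes leg 01, 03 and 08. In the 9 other leg libraries they held 1.81% to 2.41%, with a median of 1.99%. Of the 12 jaw-type genes defined above 6 were tested in leg and all 6 were among these genes, beside 7.11% of all genes. That is no result about them, since the set was chosen partly on the same leg libraries of the other species. A gene low in those libraries also passes the leg filter mainly where cybotes leg is high. Without those 6 jaw-type genes the share was 4.17%, 5.12% and 4.35% in cybotes 01, 03 and 08, against 1.76% to 2.28% in the others. Cybotes 08 no longer stood out, and the groups did not overlap. The genes called lower held 1.25%, 1.57% and 1.33% of the counts in the cybotes leg libraries and 2.75% to 5.21% in the others, where chlorocyanus 08 was the highest. These shares rest on the libraries the genes were called on.

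The jaw libraries, which the leg fit did not use, gave the same genes a similar spread between species. Without the 6 jaw-type genes, the set higher in cybotes leg held 3.40%, 3.63% and 3.60% of the counts in cybotes jaw 01, 03 and 08. It held 1.62% to 2.06% in the 9 other jaw libraries. The set lower in cybotes leg held 1.24%, 1.38% and 1.40% of cybotes jaw counts, and 2.89% to 4.72% of the other jaw counts. Cybotes jaw and the other jaw libraries did not overlap in either share. Jaw and leg libraries of a title number were correlated in their deviations from the group means, so the jaw libraries are not treated as independent of the leg libraries.

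**Figure D3:**
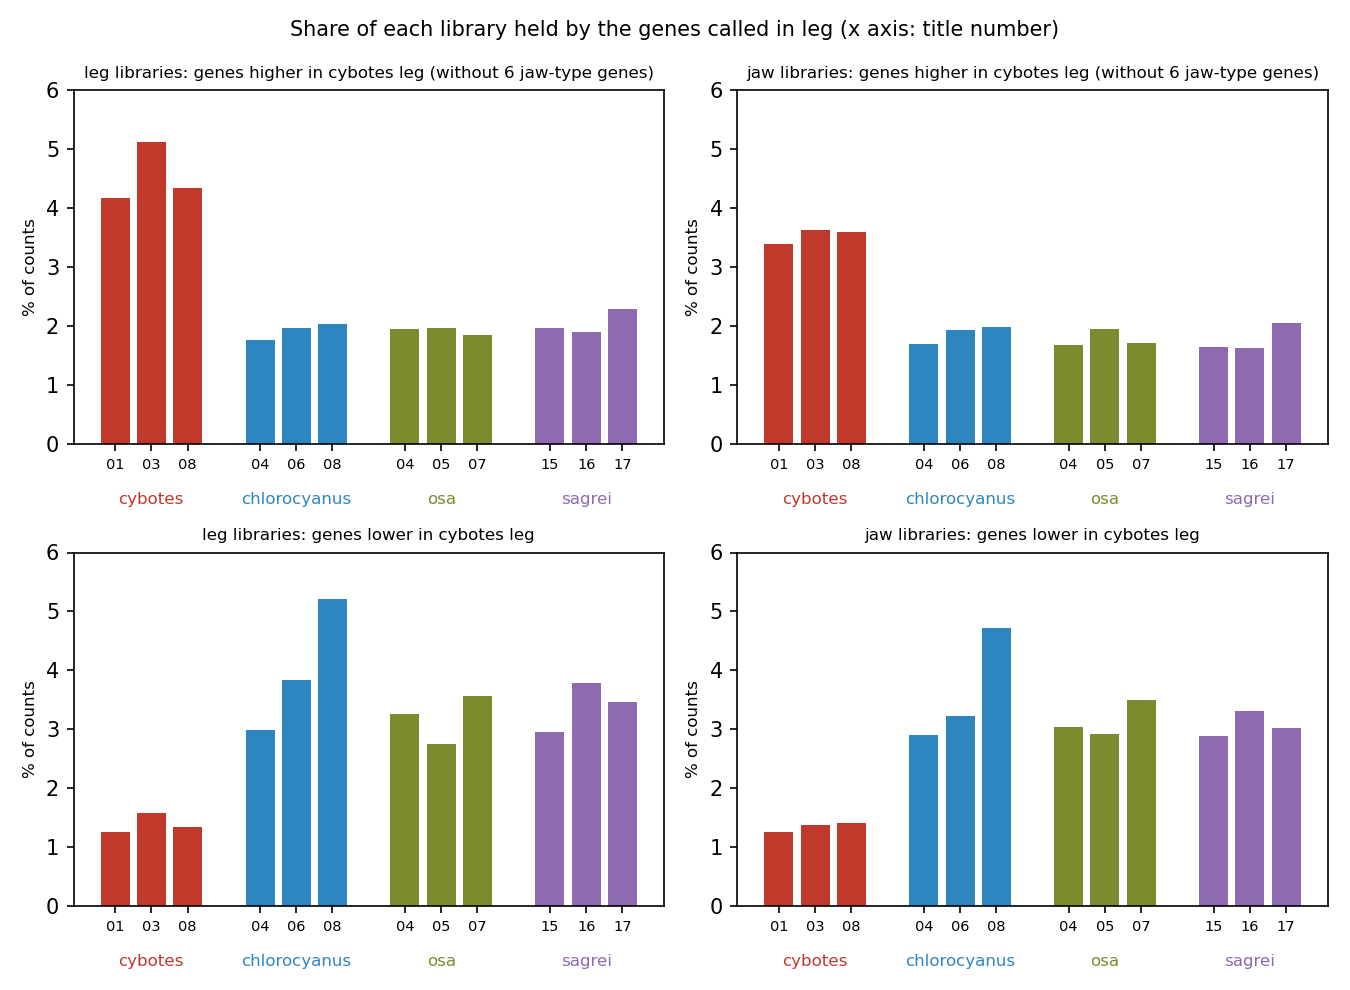
Percent of the counts of each library held by the genes called higher in cybotes leg (upper row, without the 6 jaw-type genes) and lower in cybotes leg (lower row), in leg libraries on the left and jaw libraries on the right; each bar is 1 library with its title number. In the upper row all cybotes bars are at or above 3.40% and all others at or below 2.28%, and in the lower row cybotes bars are at most 1.57% and the others at least 2.75%.

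Gene by gene, the cybotes difference in leg was largely found in jaw as well, among the genes tested there. The jaw libraries fitted alone called 1511 of 7805 genes (19.4%) for cybotes against the mean of the other species, 903 higher and 608 lower. Of the 609 genes higher in cybotes leg, 491 were tested in jaw. Among these 491, 464 had the same sign in jaw and 334 (68.0%) were called higher there. Of all 7602 genes tested in both muscles, 868 (11.4%) were called higher in jaw, and the 334 are 38.5% of those 868. Of the 449 genes lower in leg, 426 were tested in jaw, 422 had the same sign and 272 were called lower. The 272 are 63.8% of the 426, beside a background of 595 genes (7.83%) called lower in jaw among all tested in both muscles. They are 45.7% of those 595. No gene was called in opposite directions in leg and jaw. Genes low on 1 side enter the jaw fit mainly where the other side is high, so agreement in sign is partly set by the filter. The median change of the genes higher was 1.38 in leg and 1.26 in jaw, and of the genes lower -1.39 in leg and -1.23 in jaw, over the genes tested in both. Without cybotes leg 03 the shared counts were 168 higher and 92 lower.

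**Figure D4:**
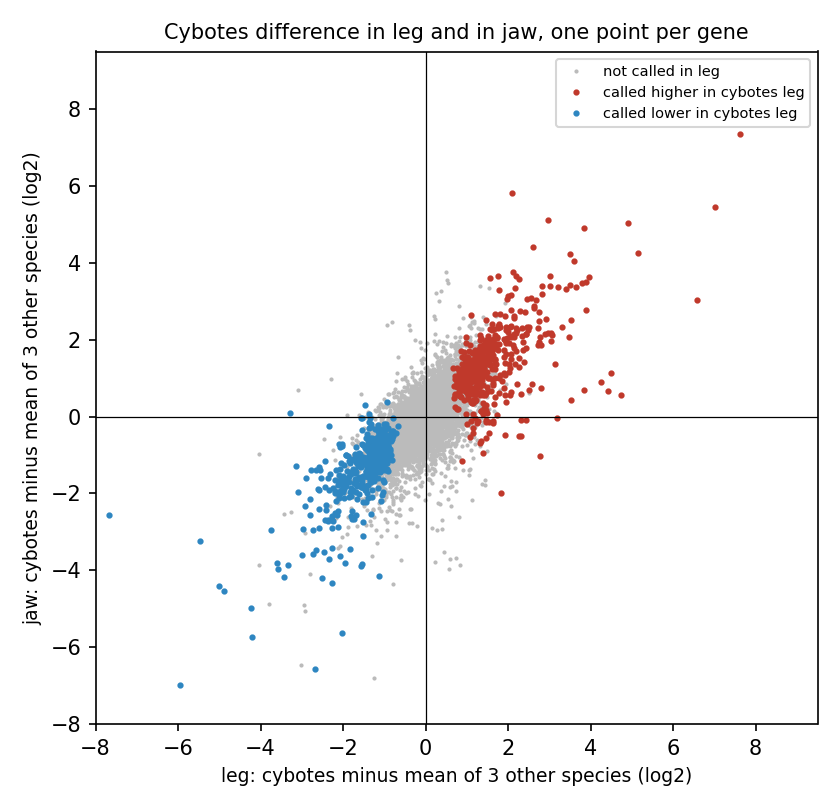
Log2 difference of cybotes from the mean of the 3 other species in leg (x axis) and in jaw (y axis) for the 7602 genes tested in both muscles, with genes called in leg in colour. Of the coloured genes, 464 of 491 higher in leg and 422 of 426 lower in leg lie on the same side of 0 in jaw.

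Not all of the largest changes were found in jaw. Of the 59 genes at least 8-fold higher in cybotes leg, 32 were tested in jaw, 31 had the same sign and 22 were called, with a median of 3.62 in leg and 3.18 in jaw. Of the 23 genes at least 8-fold lower, 16 were tested in jaw, 15 had the same sign and 10 were called, with medians of -3.68 in leg and -3.84 in jaw. Over all genes tested in both muscles, 11.4% were called higher and 7.83% lower in jaw. A gene low on 1 side passes the jaw filter mainly through the side where it is high, so this agreement is partly built in. The most abundant jaw-type gene, at 4.73 in leg, was at 0.57 in jaw (standard error 0.28, edgeR adjusted p = 0.165). ENSACAG00000002552 stood at 263, 222 and 103 CPM in cybotes jaw 01, 03 and 08 and at most 3.39 CPM in the 9 other jaw libraries (scale of all 24 libraries). Its log2 fold change in jaw was 7.35 (standard error 0.39, edgeR adjusted p = 9.21e-08). ENSACAG00000006770 stood at 35.4, 28.8 and 103 CPM in cybotes jaw, with a log2 fold change of 5.45 (standard error 0.998, edgeR adjusted p = 0.00309). Over all 7602 genes the leg and jaw differences correlated at 0.749 (Pearson) and 0.731 (Spearman). That is a description across genes, and leg and jaw share title numbers.

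Whether the cybotes difference itself differed between leg and jaw was tested by the difference of the 2 contrasts over all 24 libraries. A fit without a block leaves out the pairing of leg and jaw by title number. In it, 500 of 9123 genes had an unadjusted p under 0.05 and 1 gene (0.011%) passed. That gene, ENSACAG00000003082, is named after its values were seen. In leg it stood at 6.76, 10.9 and 11.1 CPM in cybotes 01, 03 and 08, and the 9 others ranged from 3.25 to 29.4 CPM, so leg groups overlapped. In jaw it stood at 85.5, 109 and 78.2 CPM in cybotes, against 9.43 to 31.8 CPM in the others, without overlap. The leg minus jaw difference of the cybotes contrast was -2.75 (standard error 0.45, edgeR adjusted p = 0.0346), and -2.78 with a block for the title number (standard error 0.35, edgeR adjusted p = 0.000697).

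When the title number entered as a block, so that leg and jaw were compared within a number, 174 genes (1.91%) passed, 79 more positive in leg and 95 more negative in leg. The split turned to 84 and 63 with upper-quartile scaling. Of the 12 jaw-type genes 5 were among the 79, and of the 27 leg-type genes 7 were among the 95, beside 1.91% of all genes. Both sets were chosen for the leg and jaw difference in the other 3 species, which enters this test. Their presence is therefore partly built in and is no result about them. Without both cybotes 08 libraries the count was 39, without both cybotes 03 libraries 40, and without both cybotes 01 libraries 384. For the 95, the median cybotes difference was -0.14 in leg and 1.12 in jaw, over the 89 tested in both muscles. For the 79, it was 0.79 in leg and -0.87 in jaw, over 73. These genes were chosen on the same values, so the medians describe where the difference lay and test nothing. None of the 4 named genes passed, with blocked adjusted p-values of 0.904 to 1.

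The count of 1058 depended on which libraries entered. All 1058 genes kept their sign without any 1 of the 9 other libraries and without cybotes 01 or 03, and 1056 did without cybotes 08. The 1058 were chosen on the same libraries, so kept signs are largely built in and are a description only. Without cybotes 01, 671 genes were called, 557 of them among the 1058. Without cybotes 03, 390 were called, with 358 among the 1058. Without cybotes 08, 434 were called, with 396 among the 1058. A cybotes group of 2 then carries the comparison, on the spread shared with the other species. Leaving out 1 of the 9 others gave 835 to 1368 genes, of which the highest came without chlorocyanus 04.

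**Figure D5:**
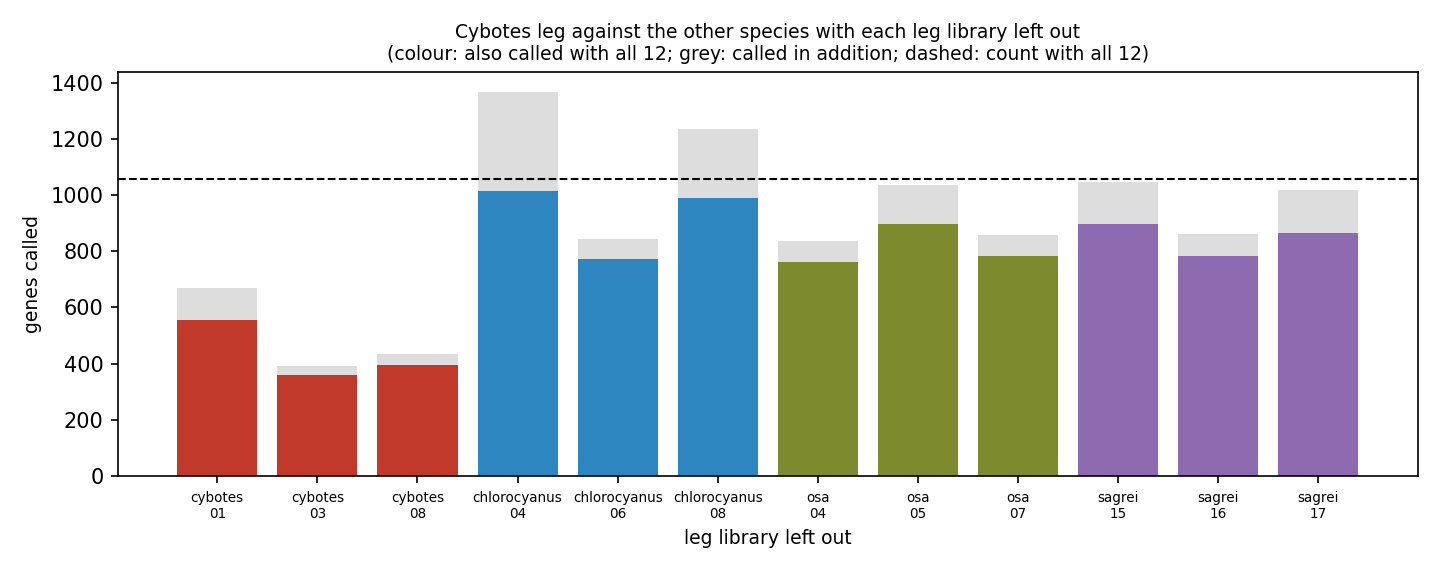
Genes called for cybotes leg against the other species when each leg library is left out in turn; the coloured part was also called with all 12 libraries, the grey part was not, and the dashed line is the count of 1058. The 3 cybotes libraries give the lowest bars, at 671, 390 and 434.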

How the data were processed

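RNA sequencing counts of leg and jaw muscle from males of 4 Anolis species were used, 24 libraries in 8 groups of 3. Per the labels' protocols, whole muscles were extracted in Trizol, and BGI libraries were prepared from total RNA. STAR is named in the submitters' processing notes, while for the counter, genome build, annotation and strand setting the entry is: not given in the sources used here. The authors deposited raw counts for 25920 identifiers, and 9343 of them had 0 counts in all leg libraries. The table gives no depth beyond these counts, and floors set on them cover counting error on the cybotes side only.

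Leg libraries were fitted alone with edgeR 4.0.16 in R 4.3.3: filterByExpr over the species (8568 genes), TMM scaling, 4 species means with 8 residual degrees of freedom, the quasi-likelihood F-test and Benjamini-Hochberg adjustment over all genes tested. The standard error is taken from F, as |log2 fold change| over its square root. Log2 CPM used a prior count of 2. Jaw libraries were fitted the same way. The leg minus jaw test used all 24 libraries (8 means), and with a block for the title number it had 8 residual degrees of freedom. Jaw and leg libraries of a number deviated together from their group means in all 12 pairs (r = 0.296 to 0.740, all above 0.1), so the numbers were taken to pair them. The labels do not say how replicates differ otherwise, so the p-values cover only the spread between these libraries, which may be technical. Replicate leg libraries differed beyond sampling noise (chi-square per degree of freedom 8.64 to 74.2). Scripts were tested on simulated counts. Alternatives used DESeq2 1.42.0 and limma 3.58.1. The contrast, lists and tests were chosen with earlier results of these data known. Gene lists and cell type markers by symbol could not be matched and were not used. The named genes are the 2 with the largest log2 fold change in each direction among genes past the threshold, with at least 5 CPM on the higher side and no overlap between the 3 cybotes and the 9 other leg libraries. Abundant genes are the 4 highest by mean CPM in each direction under the same criteria.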

Additional observations from a re-analysis of the deposited data

Results flagged for a closer look

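ENSACAG00000003082 is listed because its cybotes difference differed between leg and jaw by a test of that difference, at -2.75 on the log2 scale (leg minus jaw, edgeR adjusted p = 0.0346). In leg it averaged 9.59 ± 2.46 CPM in cybotes (SD, n = 3) and 14.7 ± 9.49 CPM in the others (n = 9), and in jaw 90.7 ± 15.8 CPM in cybotes and 18.9 ± 8.80 CPM in the others. A block for the title number raised the number of genes that differed between leg and jaw in this way to 174, and it was 39 to 384 when both libraries of 1 cybotes number were left out.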

How the results depend on the processing

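Depth limits the lowest levels, since 3 counts over the cybotes leg libraries are 0.645 CPM, and 3 libraries a group limit how many genes are called. The named genes kept their direction under every alternative run, and 2 of the 1058 genes changed sign without cybotes leg 08. ENSACAG00000012218 and ENSACAG00000014905 have 0 counts in all cybotes leg libraries, so their direction could not turn. Differences in library summaries that did not pass a test did turn: without single libraries the top-10 share (0.786 percentage points, cybotes minus the others) ran from -0.831 (cybotes 01) to 2.82 (cybotes 03), with -0.250 without chlorocyanus 08, and total counts (-41500) from -133100 (cybotes 03) to 8413 (cybotes 08), with 2231 without chlorocyanus 08 and 216 without cybotes 01. Scaling by median ratios or upper quartile, limma voom and DESeq2 left each leg and jaw count within 1.5 times its value, and the cybotes leg count ran from 927 with limma voom to 1294 with DESeq2, or 1408 with all 24 libraries in 1 fit. It was 172 with the 9 others as 1 group. Without the low-count filter the count was 1910 for cybotes leg, 2258, 1660 and 1456 against chlorocyanus, osa and sagrei alone, 2555, 1760 and 1441 for chlorocyanus, osa and sagrei leg, and 603 higher and 410 lower in both muscles.

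Leaving out each library gave 390 to 1368 genes for cybotes leg, 845 to 1766 against chlorocyanus, 454 to 1332 against osa and 307 to 1183 against sagrei. It gave 855 to 1598 for cybotes jaw, and 168 to 382 higher and 92 to 310 lower in both muscles. For the other species in leg it gave 990 to 1850 (chlorocyanus), 473 to 1241 (osa) and 352 to 1023 (sagrei).

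For leg minus jaw, the count of 1 gene became 19 with DESeq2, 2 with limma voom, 44 without the filter, 0 to 2 without single libraries and 174 with the replicate block. With the block it was 443 without the filter, 39 to 384 without both libraries of a cybotes number, and 147 to 181 with other scalings or limma voom; these blocked alternatives and those for genes shared with jaw were chosen after seeing the data. For leg libraries alone no block could be had, since each title number occurs once per species. ENSACAG00000012218 and ENSACAG00000014905 missed the threshold with the 9 others as 1 group (edgeR adjusted p = 0.0615 and 0.105), and ENSACAG00000014905 also without cybotes leg 03 (0.0552). The cause of these changes was not tested.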
